A study of Mus musculus with 4 samples.

Results

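Neurons that make somatostatin but little or no AgRP were examined in single nuclei from the arcuate nucleus (ARC), a centre of feeding and endocrine control in the basal hypothalamus. A nucleus was counted as a *Sst* nucleus when it held at least 5 UMIs (unique molecular identifiers, each a captured transcript) of *Sst* that made up at least 0.15% of its UMIs, with fewer than 5 UMIs of *Agrp*, less than 0.2% *Pomc* and fewer than 3 UMIs of *Ghrh*. Of 39176 nuclei that passed quality filters, 993 (2.53%) met this rule. They were compared with 29287 other neurons, which are all remaining nuclei with at least 2 UMIs of *Snap25* and *Syt1* together, both transcripts of the machinery of transmitter release.

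The nuclei came from ARC punches of wildtype male C57BL/6J mice, 10 weeks old, that had received DOCA-salt for 3 weeks (a subcutaneous pellet of deoxycorticosterone acetate and a saline drink offered beside water) or a sham procedure. Nuclei of 2 mice were pooled in each library after isolation, giving 2 DOCA-salt and 2 Sham libraries. DOCA-salt 1, DOCA-salt 2, Sham 1 and Sham 2 contributed 332, 459, 29 and 173 *Sst* nuclei, and every set of 4 values below follows this order. Their summed counts were 1546697, 2546275, 291093 and 1369634 UMIs, so values of Sham 1 rest on the fewest molecules. Levels are given as CPM, the UMIs of a gene scaled to a common total for each sum of nuclei, which for a gene carried by part of the nuclei cannot tell a high level in few nuclei from a low level in all.

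Somatostatin is a secreted peptide that acts mainly as an inhibitor through G protein-coupled receptors of the SSTR family. In the hypothalamus it is best known from periventricular neurons that restrain growth hormone release from the pituitary, while in the ARC *Sst* is also made by GABAergic neurons, some of which overlap with AgRP neurons that drive feeding. The homeobox factor *Otp* is required for the development of several neuroendocrine lineages, including somatostatin neurons. The *Sst* nuclei were divided here by whether a UMI of *Otp* was detected, which also depends on depth.

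The *Sst* gene lies at chr16:23889573-23890958 (GRCm38, minus strand). Its promoter carries the element through which cAMP and the factor CREB were first shown to drive transcription. The window below is shown for that element and comes from the RefSeq promoter table (GRCm38.p6), at chr16:23890874-23890903 on the minus strand, written 5′ to 3′ with the element TGACGTCA in capitals.
Sst promoter: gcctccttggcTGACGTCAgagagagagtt
The element begins 48 bases and ends 41 bases before the RefSeq start, inside the outer bounds of the GENCODE gene model. It reads the same on both strands and was present in 588 of 32851 promoter windows (1.79%). Each of these windows ran from 250 bases before to 50 bases after the start, longer than the stretch shown. Binding was not measured, and the genes of the cAMP pathway are given with the gene lists.

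The libraries differed from each other before any comparison of *Sst* nuclei. *Agrp*, the peptide that names the orexigenic neurons of the ARC, was at 193, 1.47, 52.3 and 83.5 CPM in other neurons, and *Pomc*, the precursor of the anorexigenic melanocortins, at 352, 39.5, 175 and 306 CPM. *Tbx3*, a transcription factor of the ARC, was at 62.0, 2.56, 25.1 and 50.8 CPM. All of these were lowest in DOCA-salt 2. The same library held the most *Pmch*, which encodes melanin-concentrating hormone (31.0, 2877, 43.9 and 30.7 CPM), and *Hcrt*, which encodes orexin (1.74, 823, 13.2 and 2.65 CPM), both peptides of the lateral hypothalamus. *Pmch* was as unequal among *Sst* nuclei, at 33.0, 2699, 44.7 and 43.8 CPM. Sham 1 had the fewest and deepest nuclei, with a median of 9264 UMIs per *Sst* nucleus against 3467, 3712 and 6235 in the other libraries. Each library's value is therefore given for the genes the results turn on, and the counts of genes called between classes of nuclei, or between DOCA-salt and Sham within *Sst* nuclei, also with libraries left out. With 2 libraries a group, such differences between libraries and the effect of treatment cannot be told apart.

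**Figure D1:**
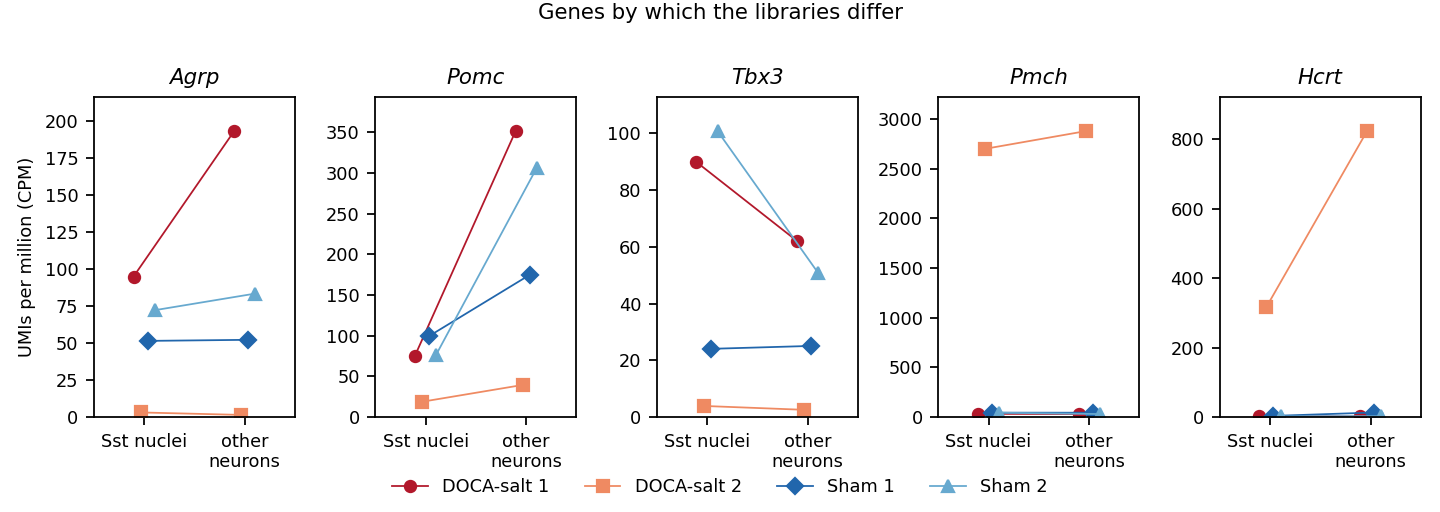
Levels in CPM (y axis, linear) of 5 genes in *Sst* nuclei and in other neurons (x axis), 1 symbol per library joined by a line. DOCA-salt 2 has the lowest *Agrp*, *Pomc* and *Tbx3* and the highest *Pmch* (2699 CPM in *Sst* nuclei) and *Hcrt*, and *Agrp* and *Pomc* were used to choose the *Sst* nuclei.

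The nuclei were chosen by their UMIs of *Sst*, *Agrp*, *Pomc* and *Ghrh*, and these levels are given as description. *Sst* reached 4579, 5694, 4569 and 4189 CPM in *Sst* nuclei and 167, 89.4, 129 and 150.0 CPM in other neurons. Single *Sst* nuclei held from 5 to 120, 159, 287 and 331 UMIs of *Sst*, with medians of 16, 21, 19 and 23. They carried 54.1%, 70.6%, 32.9% and 49.7% of all *Sst* UMIs of their library, so most *Sst* UMIs lay outside the gate in both Sham libraries and inside it in both DOCA-salt libraries. At the thresholds, 51 *Sst* nuclei had exactly 5 UMIs of *Sst* while 67 nuclei with 4 UMIs met every other condition, and 141 had a share between 0.15% and 0.20% while 166 nuclei between 0.10% and 0.15% stayed out. Among 1098 nuclei with enough *Sst*, 105 were removed for the other peptides, 87 of them for *Agrp*, and these 87 were unequally spread, with 58, 1, 3 and 25 nuclei.

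*Sst* and the limit on *Agrp* come from the rule itself, so the label was read against other markers. Of the 993 *Sst* nuclei, 901 (90.7%) passed the neuron gate. No *Agrp* UMI was found in most of them, but 134 (13.5%) held 1 to 4, including 72, 6, 7 and 49 nuclei by library, and 22 held 4, next to 12 nuclei with enough *Sst* and exactly 5 that were left out. *Otp*, *Gpr101* and *Tmem26*, which were listed as markers with these data known, were higher than in other neurons in each of the 4 libraries. Oligodendrocyte-gated nuclei (at least 10 UMIs over oligodendrocyte genes that include *Mbp*, *Mobp* and *Mog*, and none of *Snap25* or *Syt1*) showed any *Sst* UMI in 5.56%, 11.5%, 0% (of only 3 nuclei) and 10.9%, at median depths of 876, 873.5, 1722 and 1399.5 UMIs, and other neurons in 23.4, 19.1, 55.2 and 34.9% at 3315.5, 3110, 8333 and 4528.5. Thinned to 2000 UMIs, which left 6, 18, 0 and 39 oligodendrocyte-gated nuclei, *Sst* was found in 0%, 16.7% and 12.8% of those of DOCA-salt 1, DOCA-salt 2 and Sham 2, and in 16.1, 11.8, 21.1 and 17.3% of other neurons. Of these oligodendrocyte-gated nuclei, 3 of DOCA-salt 2 were also *Sst* nuclei. Another library held the same barcode for 5 *Sst* nuclei.

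Genes that set *Sst* nuclei apart from other neurons of the same library were sought on counts summed per library, with the library as a block. Of 14482 genes tested, 355 were called (2.45%), 164 higher (1.13%) and 191 lower (1.32%) in *Sst* nuclei, and 267 of the 355 differed in the same direction in all 4 libraries. Without DOCA-salt 1, DOCA-salt 2, Sham 1 or Sham 2, 256, 483, 238 and 249 genes were called, of which 210, 287, 229 and 222 were among the 355. DESeq2 called 183. Without the library block 7 were called.

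The marker genes are given first. *Tmem26*, which encodes a transmembrane protein, was at 51.7, 28.7, 24.0 and 41.6 CPM in *Sst* nuclei and 8.44, 5.50, 5.55 and 7.47 CPM in other neurons (log2 fold change 2.46 ± 0.16 (SE), adjusted p = 8.38e-16). *Otp* was at 261, 199, 172 and 261 against 63.1, 69.2, 59.4 and 55.6 CPM (log2 fold change 1.87 ± 0.08 (SE), adjusted p = 2.82e-22). The constitutively active orphan receptor *Gpr101* was at 348, 190.1, 209.6 and 367 against 140.3, 93.2, 91.7 and 150.0 CPM (log2 fold change 1.21 ± 0.06 (SE), adjusted p = 3.51e-19). For all of them the lowest *Sst* value lay above the highest value of other neurons, which is no independent evidence of the label. With each nucleus thinned to 2000 UMIs, *Otp* was found in 40.1, 32.6, 24.1 and 40.8% of *Sst* nuclei and 9.82, 9.81, 11.3 and 9.52% of other neurons, and *Gpr101* in 47.6, 29.1, 31.0 and 47.1% against 19.5, 14.7, 15.1 and 22.7%. Neither gene was found in most thinned *Sst* nuclei of any library. No UMI of *Otp*, *Gpr101* or *Tmem26* was present in 60, 141, 5 and 19 *Sst* nuclei (18.1%, 30.7%, 17.2% and 10.98%).

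Receptors of the somatostatin and growth hormone axis were among the genes that rose. *Sstr2*, a somatostatin receptor, was at 31.7, 20.4, 27.5 and 36.5 against 13.2, 8.90, 9.09 and 10.1 CPM (log2 fold change 1.44 ± 0.16 (SE), adjusted p = 1.68e-08), and the groups did not overlap. *Sstr1*, another member of the family, also rose (log2 fold change 1.44 ± 0.19 (SE), adjusted p = 3.86e-07), at 31.0, 3.53, 37.8 and 67.9 against 10.9, 3.97, 15.6 and 17.9 CPM, but was not higher in DOCA-salt 2 and lost its call with DESeq2 (adjusted p = 0.18). *Ghr*, the growth hormone receptor, rose from 52.9, 32.1, 31.7 and 42.6 to 72.4, 63.2, 48.1 and 48.2 CPM (log2 fold change 0.59 ± 0.11 (SE), adjusted p = 0.000274), a call lost without DOCA-salt 2 (adjusted p = 0.121). *Sstr3* was at 7.76, 10.6, 0 and 5.11 CPM and did not pass (adjusted p = 0.593), nor did *Sstr5* (adjusted p = 0.52). *Sstr4* had 1, 0, 0 and 1 UMIs in *Sst* nuclei, *Cort*, a relative of *Sst* that marks cortical interneurons, had 1, 0, 0 and 0, and *Ghrhr*, the receptor of growth hormone-releasing hormone, had none. Of 17 genes tested in the list of the somatostatin and growth hormone axis, 3 were called higher and 1, *Igfbp5*, lower, with a median log2 fold change of -0.06 beside -0.01 over all tested genes.

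Among 50 metabolic and peptide receptors tested, 4 rose and 2 fell, with a median of -0.12. *Calcr*, the calcitonin receptor that with RAMP proteins also binds amylin, was at 56.2, 52.2, 55.0 and 71.6 against 22.8, 16.5, 25.0 and 26.9 CPM (log2 fold change 1.44 ± 0.11 (SE), adjusted p = 4.02e-13). *Npy2r*, an inhibitory receptor of neuropeptide Y, was at 43.3, 41.2, 48.1 and 56.2 against 32.6, 11.04, 22.6 and 30.3 CPM (log2 fold change 1.08 ± 0.15 (SE), adjusted p = 1.73e-06). Both were higher in every library, and *Npy2r* was not called by DESeq2 (adjusted p = 0.067). *Tacr1*, the receptor of substance P, was at 53.0, 31.8, 13.7 and 36.5 against 15.9, 14.9, 15.9 and 14.9 CPM (log2 fold change 1.29 ± 0.15 (SE), adjusted p = 2.22e-08), lower than in other neurons in Sham 1. The corticotropin-releasing hormone receptor *Crhr1* (log2 fold change 1.25 ± 0.23 (SE), adjusted p = 0.000431) was at 35.6, 8.25, 3.44 and 18.3 against 10.9, 7.32, 5.41 and 4.39 CPM, again lower in Sham 1, and was not called without DOCA-salt 1 (adjusted p = 0.083) or by DESeq2 (0.138). *Cnr1*, the cannabinoid receptor (log2 fold change -0.78 ± 0.09 (SE), adjusted p = 1.11e-08), and the dopamine receptor *Drd1* (log2 fold change -0.89 ± 0.22 (SE), adjusted p = 0.014) were the receptors that fell. *Pth2r*, the receptor of the peptide TIP39, was at 12.3, 5.89, 10.3 and 6.57 against 0.962, 0.451, 0.861 and 1.16 CPM (log2 fold change 3.35 ± 0.37 (SE), adjusted p = 7.28e-09). It lies below the 20 CPM asked of named genes and was chosen after its values were seen.

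More neuropeptide genes fell than rose in *Sst* nuclei. Of 28 tested, 12 fell and 2 rose, with a median log2 fold change of -0.53. *Pnoc*, the precursor of nociceptin, was at 74.4, 118, 134 and 77.4 against 29.5, 41.1, 38.8 and 54.7 CPM (log2 fold change 1.23 ± 0.11 (SE), adjusted p = 2.32e-11), higher in every library. *Npy* was at 350.4, 249, 144 and 304 against 206, 5.38, 126 and 204 CPM (log2 fold change 1.73 ± 0.34 (SE), adjusted p = 0.000872). In DOCA-salt 2, where *Npy* and *Agrp* were nearly absent from other neurons, it was still at 249 CPM in *Sst* nuclei, whereas the other libraries differed by a smaller margin. The estimate depended on that library, with a log2 fold change of 0.62 without it, and the call was lost without Sham 1 (adjusted p = 0.136) and with DESeq2 (0.944). Among the peptides that fell were *Crh*, corticotropin-releasing hormone (log2 fold change -1.71 ± 0.48 (SE), adjusted p = 0.0395), *Nts*, neurotensin (log2 fold change -1.07 ± 0.12 (SE), adjusted p = 6.61e-09), *Gal*, galanin (log2 fold change -0.87 ± 0.11 (SE), adjusted p = 3.66e-07), *Tac2*, neurokinin B (log2 fold change -0.58 ± 0.10 (SE), adjusted p = 0.000282), and *Pdyn*, prodynorphin (log2 fold change -0.53 ± 0.11 (SE), adjusted p = 0.00122), each of them lower in all 4 libraries. *Oxt*, *Avp* and *Hcrt* were also called lower, but not in DOCA-salt 1, and all of them were highest in DOCA-salt 2. *Cartpt* (200.4, 562, 113 and 124 against 342, 378, 158 and 248 CPM) and *Trh* (27.8, 174, 199 and 54.8 against 20.8, 212, 135 and 106 CPM) were not called (adjusted p = 0.381 and 0.428).

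Among transmitter genes, *Slc32a1* rose and *Slc17a6* fell in *Sst* nuclei. *Slc32a1*, the vesicular GABA transporter, was at 231, 266, 216 and 210.3 against 153, 263, 174 and 145 CPM (log2 fold change 0.35 ± 0.07 (SE), adjusted p = 0.00123), with DOCA-salt 2 showing almost no difference. The call was lost without DOCA-salt 1 (adjusted p = 0.068) or without Sham 1 (0.054). *Slc17a6*, the vesicular glutamate transporter VGLUT2, fell in every library, to 102, 122, 158 and 91.3 from 201, 178, 246 and 229 CPM (log2 fold change -0.87 ± 0.08 (SE), adjusted p = 8.35e-11). *Gad1* and *Gad2*, which make GABA, were not called (adjusted p = 0.449 and 0.926). By detection, 73.5%, 60.3%, 48.3% and 60.1% of *Sst* nuclei held UMIs of *Slc32a1*, *Gad1* or *Gad2* without *Slc17a6*, and 5, 23, 0 and 4 nuclei held *Slc17a6* alone (0 of 29 in Sham 1 allows a share of up to 10.3% of nuclei with such UMIs, not of nuclei that express the gene). UMIs of both kinds were found in 17.8%, 26.4%, 51.7% and 33.5%, with the highest share in the library of deepest nuclei. After thinning, *Slc17a6* was found in 12.7, 17.3, 13.8 and 14.0% of *Sst* nuclei and 27.8, 25.2, 33.4 and 30.3% of other neurons, and *Slc32a1* in 35.2, 38.3, 41.4 and 27.4% against 24.2, 37.3, 27.3 and 24.5%. Oligodendrocyte-gated nuclei, which should lack these genes, held *Slc17a6* in 4.63, 5.88, 33.3 and 10.9% and *Gad2* in 16.7, 21.7, 33.3 and 25.3% without thinning. Thinned, the 6, 18 and 39 of DOCA-salt 1, DOCA-salt 2 and Sham 2 held *Slc17a6* in 0%, 22.2% and 17.9%, *Slc32a1* in 16.7%, 16.7% and 17.9% and *Gad2* in 33.3%, 44.4% and 33.3%, beside 56.2, 60.7, 69.0 and 56.7% for *Gad2* in thinned *Sst* nuclei of the 4 libraries. The *Slc17a6* shares of *Sst* nuclei in DOCA-salt 2 and Sham 2 thus lay below this background and are not read as expression, and UMIs of a GABA gene in a nucleus do not by themselves show its transmitter. Of 13 transmitter genes tested, 1 rose and 4 fell. The others that fell were *Slc5a7*, the choline transporter (log2 fold change -1.16 ± 0.27 (SE), adjusted p = 0.00621), lower in every library, and *Hdc*, the enzyme of histamine synthesis (log2 fold change -2.14 ± 0.26 (SE), adjusted p = 9.30e-08), and *Slc18a2*, the vesicular monoamine transporter (log2 fold change -0.83 ± 0.15 (SE), adjusted p = 0.000189), neither of them lower in Sham 1.

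**Figure D2:**
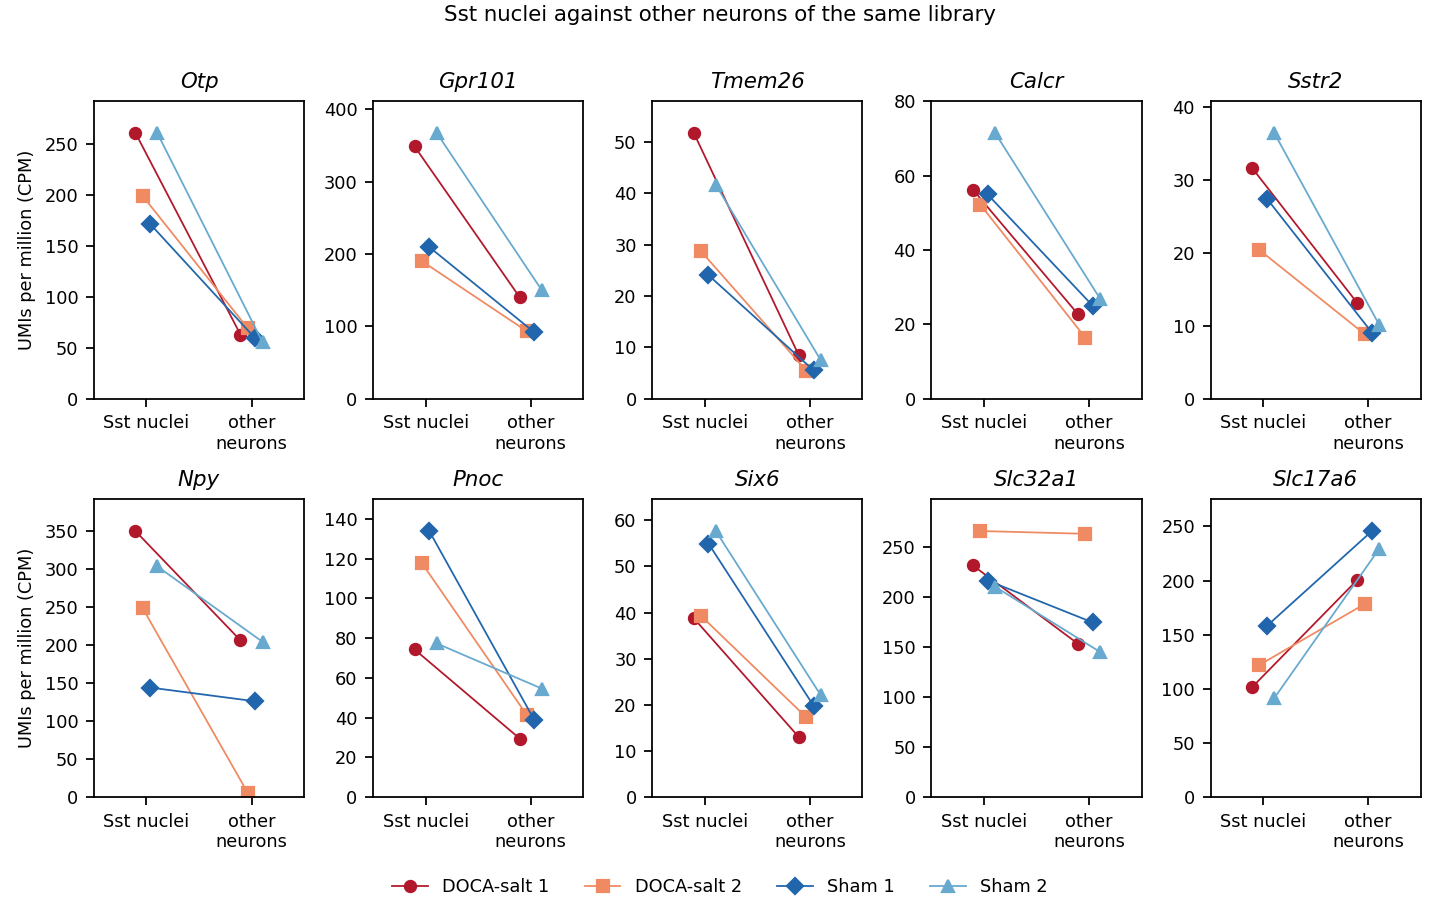
Levels in CPM (y axis, linear, a separate scale per gene) of 10 genes in *Sst* nuclei and in other neurons (x axis), with a line for each of the 4 libraries. All lines for *Otp*, *Gpr101*, *Tmem26*, *Calcr*, *Sstr2*, *Pnoc* and *Six6* fall from left to right and all lines for *Slc17a6* rise, while *Npy* in other neurons of DOCA-salt 2 is at 5.38 CPM and *Slc32a1* in DOCA-salt 2 is nearly flat.

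Transcription factors that pattern the hypothalamus were more often lower than higher. Of 86 tested, 8 rose and 15 fell, with a median of -0.21. *Six6*, a factor of the ventral hypothalamus and retina, was at 38.8, 39.3, 55.0 and 57.7 against 13.0, 17.3, 19.8 and 22.0 CPM (log2 fold change 1.37 ± 0.12 (SE), adjusted p = 4.42e-11), and *Isl1*, needed for ARC neuron identity, at 186, 93.1, 117 and 166 against 141, 52.7, 52.4 and 86.7 CPM (log2 fold change 0.74 ± 0.08 (SE), adjusted p = 5.41e-09). Both were higher in every library. *Bsx*, a homeobox gene of ARC peptide neurons, was higher in every library too (log2 fold change 0.94 ± 0.17 (SE), adjusted p = 0.00025). *Tbx3* was at 89.9, 3.93, 24.0 and 101 against 62.0, 2.56, 25.1 and 50.8 CPM (log2 fold change 0.70 ± 0.12 (SE), adjusted p = 9.54e-05) but lower in Sham 1, and its call was lost without Sham 2 (adjusted p = 0.112). *Ebf3* and *Sox6* (log2 fold change 0.58 ± 0.15 (SE), adjusted p = 0.0236, not higher in Sham 2) were also among those that rose. Among those that fell were *Foxp2* (log2 fold change -1.13 ± 0.15 (SE), adjusted p = 4.26e-07), *Nr5a1*, which marks the ventromedial nucleus (log2 fold change -0.86 ± 0.21 (SE), adjusted p = 0.0132), and *Zic1* (log2 fold change -0.72 ± 0.11 (SE), adjusted p = 7.41e-06), all lower in all 4 libraries. *Foxp2* was not called by DESeq2 (adjusted p = 0.184).

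Genes of the regulated secretory pathway, by which peptides are packed into dense-core granules, leaned upward. Of 21 tested, 7 rose and 2 fell, with a median of 0.13. *Resp18*, an endocrine granule protein, was at 681, 997, 646 and 636 against 473, 712, 512 and 509 CPM (log2 fold change 0.42 ± 0.04 (SE), adjusted p = 2.62e-09). *Scg2*, secretogranin II, was at 836, 721, 1195 and 1064 against 649, 603, 908 and 877 CPM (log2 fold change 0.31 ± 0.04 (SE), adjusted p = 2.39e-07), and *Chgb*, chromogranin B, at 368, 353, 436 and 496 against 279, 294, 368 and 344 CPM (log2 fold change 0.37 ± 0.05 (SE), adjusted p = 2.26e-06). All 3 were higher in every library, by small margins. The other genes that rose were *Pcsk1n*, *Ptprn*, *Baiap3* and *Vgf*, and *Syt4* and *Chga* fell. In the list of 38 cAMP and CREB genes, 3 rose and none fell, with a median of 0.00. They were *Gnas*, the stimulatory G protein subunit (log2 fold change 0.16 ± 0.04 (SE), adjusted p = 0.00966), *Gnai1*, an inhibitory one (log2 fold change 0.47 ± 0.07 (SE), adjusted p = 2.75e-05), and the phosphodiesterase *Pde4b* (log2 fold change 0.36 ± 0.08 (SE), adjusted p = 0.00241), while *Creb1* itself was at 61.4, 50.7, 65.3 and 48.9 against 54.5, 54.2, 57.9 and 58.4 CPM (adjusted p = 0.973). *Gnai1* and *Pde4b* were not higher in Sham 1. None of 15 immediate early genes was called.

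Ion channels and transmitter receptors moved both ways. Of 55 channels tested, 3 rose and 11 fell (median -0.01). The potassium channel *Kcnh8* rose (log2 fold change 0.72 ± 0.19 (SE), adjusted p = 0.0204) and was higher in every library. Those that fell included the potassium channel *Kcna1* (log2 fold change -0.52 ± 0.14 (SE), adjusted p = 0.0303), lower in all 4 libraries, and the calcium channel subunit *Cacna2d1* (log2 fold change -0.52 ± 0.09 (SE), adjusted p = 7.97e-05), which was not lower in DOCA-salt 2. Of 48 transmitter receptors, 3 rose and 5 fell (median -0.09), with the GABA-A receptor subunit *Gabra3* (log2 fold change -0.34 ± 0.08 (SE), adjusted p = 0.0103) lower in 3 of 4 libraries. Receptors of corticosteroids and angiotensin II were looked at because DOCA is a mineralocorticoid. *Nr3c1*, the glucocorticoid receptor, was at 136, 84.8, 113 and 175 against 98.0, 79.4, 113 and 131 CPM (log2 fold change 0.30 ± 0.08 (SE), adjusted p = 0.0157), with hardly any difference in Sham 1, and lost its call without DOCA-salt 1 (adjusted p = 0.43), without Sham 2 (0.244) and with DESeq2 (0.119). *Nr3c2*, the mineralocorticoid receptor, was at 22.0, 9.82, 30.9 and 14.6 against 17.5, 11.8, 21.0 and 16.1 CPM (adjusted p = 0.984), and the angiotensin receptor *Agtr1a* at 10.3, 4.32, 0 and 0 against 4.50, 1.61, 0.909 and 2.25 CPM (adjusted p = 0.445). None of 6 renin-angiotensin genes tested was called, and 1 of 17 corticosteroid receptors and targets rose (*Nr3c1*) and 1 fell.

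Among called genes with 20 or more CPM and the same direction in every library, the 10 of largest change each way held these further genes. *Kctd12b* (log2 fold change 1.64 ± 0.20 (SE), adjusted p = 1.18e-07) and *Ecel1*, an endopeptidase of the nervous system (log2 fold change 1.17 ± 0.09 (SE), adjusted p = 4.02e-13), completed the genes that rose. Those that fell included the haemoglobin genes *Hba-a2*, *Hba-a1* and *Hbb-bs* (log2 fold change -1.08 ± 0.12 (SE), adjusted p = 1.68e-08), the first pair being near-identical copies whose reads may be shared, the vascular genes *Slco1a4* and *Cldn5*, the lipid transfer gene *Pltp*, the synaptic organiser *C1ql2* and the axon guidance cue *Slit2* (log2 fold change -0.89 ± 0.11 (SE), adjusted p = 9.30e-08). Endothelial markers summed to 20.7, 80.1, 44.7 and 54.8 CPM in *Sst* nuclei and 52.3, 127, 134 and 83.3 CPM in other neurons, with *Flt1* the most abundant and 3 of 6 called lower. Oligodendrocyte markers summed to 566, 1829, 2587 and 1892 against 671, 1695, 2935 and 2611 CPM, with 1 of 8 called (lower), and astrocyte markers to 1604, 2059, 2954 and 2611 against 1737, 1993, 2731 and 2574 CPM, with *Slc1a2* leading and none of 8 called. Of the remaining lists, 1 of 5 mural genes (*Vtn*) and 1 of 6 of tanycytes and ependymal cells (*Crym*) fell, 0 of 7 genes of oligodendrocyte precursors and 0 of 7 of microglia were called, and of 7 pan-neuronal genes 1 rose (*Snhg11*) and 3 fell (*Nefl*, *Stmn2* and *Rbfox3*). No marker of the glial and vascular lists was at 0 in all *Sst* sums. Their part in these differences was not tested. Without the nuclei richest in glial and vascular transcripts, 359 genes were called, while *Cldn5*, *Slco1a4* and *Pltp* no longer passed (adjusted p = 0.395, 0.293 and 0.16). Those nuclei were picked by such transcripts, so the lost calls of vascular genes cannot show where the difference came from.

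The *Sst* nuclei were not uniform. *Lhx6*, a factor of interneurons born in the ganglionic eminences, was found in 26, 8, 0 and 4 of them, and in DOCA-salt 1 these 26 (7.83%) are set beside the rest of that library. There *Npy* was found in 65.4% against 23.2%, *Sox6* in 57.7% against 6.86%, *Nos1*, neuronal nitric oxide synthase, in 42.3% against 14.7%, and *Otp* in 19.2% against 62.1%. The few *Lhx6*-positive nuclei of the other libraries did not all follow, with *Otp* in 5 of 8 in DOCA-salt 2 (62.5% against 50.6%) and 2 of 4 in Sham 2 (50% against 71.6%), and *Sox6* in 4 of 8 (50% against 13.1%) and 0 of 4. The list of cortical and striatal *Sst* interneuron markers summed to 1347, 1442, 1339.8 and 1097 CPM in *Sst* nuclei and 1578, 1125, 1298 and 1181 CPM in other neurons, with *Calb2* the most abundant, and 3 of 17 tested were called higher and 4 lower. *Ebf3* was found in 64 *Sst* nuclei of DOCA-salt 2 (13.9%) and in 2, 0 and 2 of the other libraries. Of these 64, 68.8% held *Slc17a6* against 25.3% of the rest, and 39.1% held *Slc32a1* against 60.5%. *Ebf3* was called higher in *Sst* nuclei as a whole (log2 fold change 1.80 ± 0.28 (SE), adjusted p = 1.43e-05), although it was at 3.88, 51.1, 0 and 1.46 CPM and so high in DOCA-salt 2 alone. *Pmch* lay mostly in few nuclei, since 47 *Sst* nuclei of DOCA-salt 2 (10.2%) held 5 or more UMIs, at 15478 CPM, and the rest were at 197 CPM. In that library any *Pmch* UMI was found in 65.6% of *Sst* nuclei, 61.5% of other neurons and 50% of oligodendrocyte-gated nuclei, or 43.1%, 42.1% and 38.9% after thinning. These subsets were picked after their values were seen and were not tested.

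At least 5 UMIs of *Npy* were found in 27, 52, 2 and 25 *Sst* nuclei (8.13%, 11.3%, 6.90% and 14.5%). In DOCA-salt 1, 40.7% of them held *Otp* and 40.7% *Lhx6*, those of DOCA-salt 2 held them in 73.1% and 1.92%, and those of Sham 2 in 92% and 4.00%. A few UMIs of *Agrp* were present in 68% of those of Sham 2, but in 7.41% and 3.85% of those of DOCA-salt 1 and DOCA-salt 2. High *Npy* occurred beside *Otp*, beside *Lhx6* and beside traces of *Agrp* in different libraries. For comparison, the nuclei with enough *Sst* and at least 5 UMIs of *Agrp* held 1513, 2273 and 1272 CPM of *Npy* in DOCA-salt 1, Sham 1 and Sham 2, and 344, 184 and 266 CPM of *Otp* (DOCA-salt 2 had 1 such nucleus).

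*Otp*-positive *Sst* nuclei (1 or more UMIs) numbered 195, 233, 18 and 123, and *Otp*-negative ones 137, 226, 11 and 50. On sums per library with the library as a block, 17 of 9701 genes were called (0.175%), 6 higher (0.0618%) and 11 lower (0.113%) in *Otp*-positive nuclei. All 17 calls were lost without DOCA-salt 2 (15 of them tested, 0 called by edgeR, 343 genes at an unadjusted p under 0.05). Without Sham 1, 12 genes were called, 11 of them among the 17, and DESeq2 called 6. *Otp*-positive nuclei were deeper, with medians of 3894, 4340, 10756 and 7485 UMIs against 2914, 3234, 5784 and 4208, and when nuclei were thinned to 2000 UMIs before the split none was called, with 10 of the 17 still tested.

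The regional transcription factors that passed were lower in *Otp*-positive nuclei. *Dlx1* was at 16.0, 33.6, 32.4 and 30.2 CPM in *Otp*-positive and 51.1, 82.2, 80.1 and 49.5 CPM in *Otp*-negative nuclei (log2 fold change -1.26 ± 0.21 (SE), adjusted p = 0.000421), and the antisense RNA *Dlx6os1* at 10.0, 5.38, 9.25 and 6.21 against 34.6, 24.6, 26.7 and 45.4 CPM (log2 fold change -2.17 ± 0.36 (SE), adjusted p = 0.000359), whose counting by strand is not given in the sources used here. *Meis2*, a homeobox cofactor, was at 35.1, 27.6, 0 and 1.77 against 87.5, 59.5, 26.7 and 12.4 CPM (log2 fold change -1.30 ± 0.24 (SE), adjusted p = 0.00204). The groups did not overlap for *Dlx1* and *Dlx6os1*, and all of them were lower in each library. Of 49 regional transcription factors tested, 5 fell, among them these 3 and the nuclear receptor *Rorb* (log2 fold change -0.79 ± 0.15 (SE), adjusted p = 0.00317), and none rose, with a median of -0.14 beside 0.00 over all genes. *Rorb* fell most in DOCA-salt 2, and its log2 fold change was -0.33 without that library.

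Among peptides, *Tac2* was lower in *Otp*-positive nuclei, at 44.1, 16.1, 27.8 and 44.4 against 89.3, 61.4, 147 and 70.1 CPM (log2 fold change -1.33 ± 0.21 (SE), adjusted p = 0.00019), in every library. *Trh*, thyrotropin-releasing hormone, was called higher (log2 fold change 1.54 ± 0.21 (SE), adjusted p = 2.07e-05) with levels of 27.0, 257, 236 and 53.2 against 29.2, 56.7, 93.5 and 61.9 CPM, that is higher in DOCA-salt 2 and Sham 1 only, and its log2 fold change was 0.23 without DOCA-salt 2. *Sema3c*, a secreted guidance cue (18.0, 55.1, 69.4 and 19.5 against 5.47, 19.8, 26.7 and 4.13 CPM, log2 fold change 1.53 ± 0.30 (SE), adjusted p = 0.00475), *Fgfr1*, a fibroblast growth factor receptor (126, 85.4, 162 and 121 against 89.3, 33.1, 53.4 and 82.5 CPM, log2 fold change 0.87 ± 0.17 (SE), adjusted p = 0.00375), *Asb4*, found in ARC feeding neurons (log2 fold change 0.71 ± 0.12 (SE), adjusted p = 0.000767), and *Calb2*, the calcium buffer calretinin (log2 fold change 0.66 ± 0.10 (SE), adjusted p = 0.00019), were higher in every library. *Fam46a* was called without holding in all libraries. *Prlr*, the prolactin receptor, fell (log2 fold change -0.59 ± 0.13 (SE), adjusted p = 0.0175), as did *Ptch1*, *Nrp2* and *Ogfrl1*, each lower in every library, and *Cacna2d3*, which was not lower in Sham 1. Of the other lists, the 21 metabolic receptors, 21 secretory granule genes, 33 cAMP genes and 8 transmitter genes tested held no call. No glial marker was called either, but all 8 astrocyte markers (median -0.27) and all 5 markers of oligodendrocyte precursors tested (median -0.34) had negative log2 fold changes. Astrocyte markers summed to 1358, 2051, 2572 and 2571 CPM in *Otp*-positive and 2051, 2070.0, 4059.9 and 2798 CPM in *Otp*-negative nuclei, and those of oligodendrocyte precursors to 143, 155, 189.6 and 185 against 149.5, 192, 120.2 and 260.0 CPM. Without the nuclei richest in glial and vascular transcripts, 16 of the 17 genes were still called.

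Several genes that set *Sst* nuclei apart did not pass between *Otp*-positive and *Otp*-negative nuclei. *Gpr101* was at 365, 219.8, 194 and 369 against 319, 148, 254 and 359 CPM (log2 fold change 0.24 ± 0.11, adjusted p = 0.924), *Tmem26* at 54.1, 39.0, 18.5 and 46.1 against 47.4, 14.2, 40.1 and 20.6 CPM (0.74 ± 0.26, 0.621) and *Sstr2* at 32.1, 17.5, 23.1 and 38.1 against 31.0, 24.6, 40.1 and 28.9 CPM (-0.14 ± 0.27, 1). *Slc32a1* (224, 231, 227 and 202 against 244, 315, 187 and 248 CPM) and *Slc17a6* (110.2, 139.8, 148 and 84.3 against 85.7, 97.3, 187 and 124 CPM) overlapped as well. *Npy* was at 199, 309, 167 and 337 CPM in *Otp*-positive and 625, 164, 80.1 and 149 CPM in *Otp*-negative nuclei, with the order turned round in DOCA-salt 1, the library of most *Lhx6*-positive nuclei. A p that misses the threshold here does not show equal levels.

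**Figure D3:**
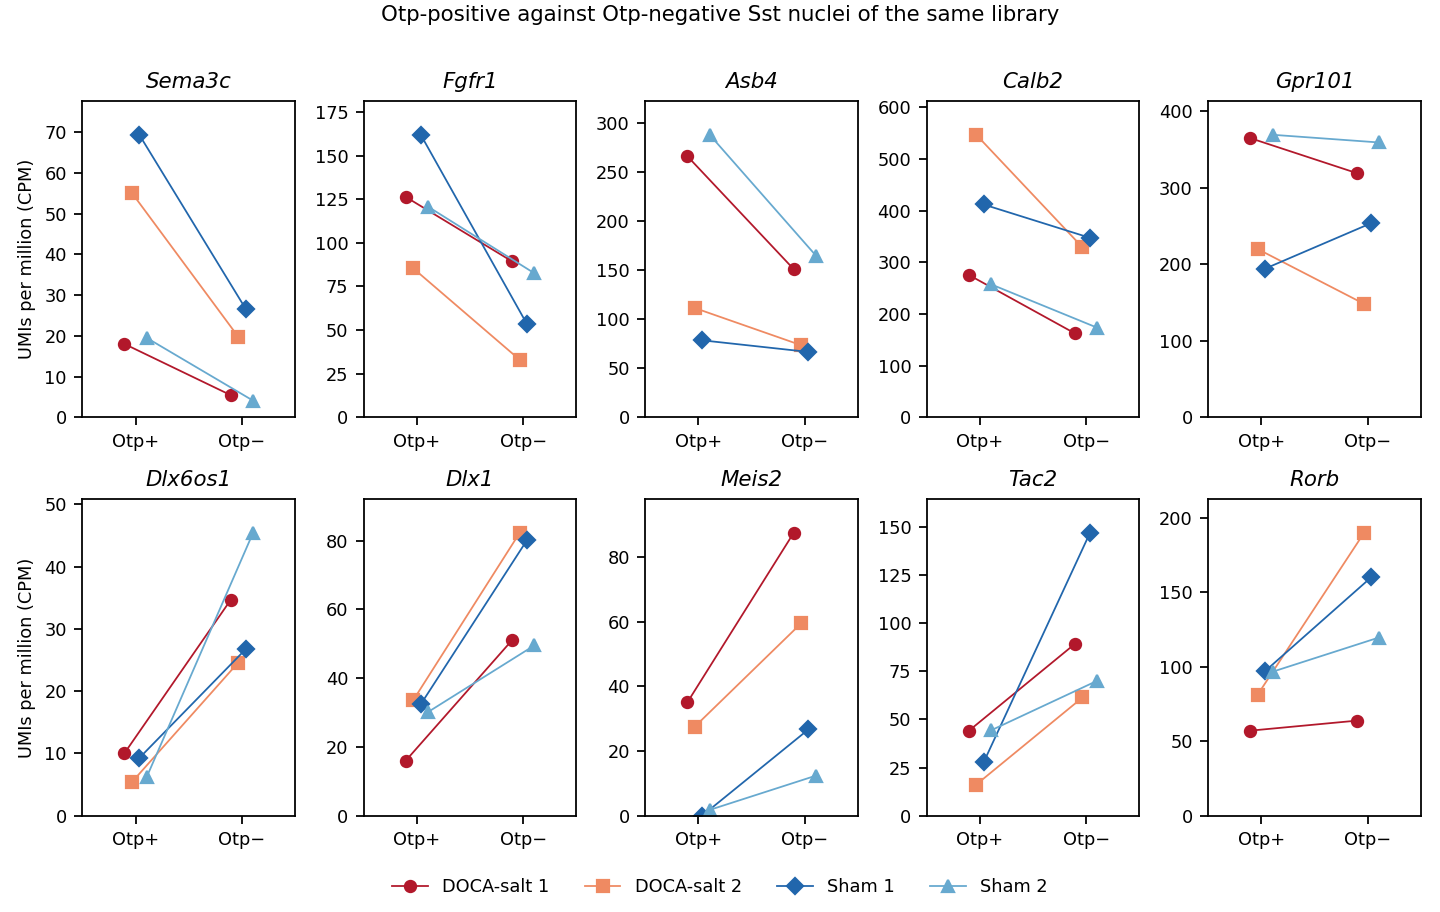
Levels in CPM (y axis, linear, a separate scale per gene) of 10 genes in *Otp*-positive and *Otp*-negative *Sst* nuclei (x axis), with a line for each library. The 4 lines of *Sema3c*, *Fgfr1*, *Asb4* and *Calb2* fall and those of *Dlx6os1*, *Dlx1*, *Meis2*, *Tac2* and *Rorb* rise from left to right, while those of *Gpr101* go both ways.

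Whether DOCA-salt changed how many *Sst* nuclei were found was asked first. They made up 3.22%, 2.43%, 1.32% and 2.23% of kept nuclei, with Wilson 95% intervals, which cover counting error only, of 2.90 to 3.58%, 2.22 to 2.66%, 0.918 to 1.88% and 1.92 to 2.58%. The DOCA-salt mean was 2.82% and the Sham mean 1.77%. Both DOCA-salt libraries lay above both Sham libraries, but with 2 against 2 libraries the two-sided exact permutation p cannot go below 0.333, which was the value here. Relative to neurons the shares were 3.93%, 2.86%, 1.34% and 2.72% (exact permutation p = 0.333). On nuclei thinned to 2000 UMIs, with 3 or more UMIs of *Sst* asked for, they were 5.83%, 4.24%, 2.56% and 4.31% and the groups overlapped (exact permutation p = 0.667).

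*Otp*-positive nuclei made up 58.7%, 50.8%, 62.1% and 71.1% of *Sst* nuclei, lower in both DOCA-salt libraries (means 54.7% and 66.6%, exact permutation p = 0.333, the smallest that is possible). Other neurons showed *Otp* in 16.1%, 15.2%, 34.5% and 19.7%, and oligodendrocyte-gated nuclei in 2.78%, 5.35%, 33.3% (1 of 3 nuclei) and 2.30%, or 16.7%, 16.7% and 5.13% of the 6, 18 and 39 nuclei left in DOCA-salt 1, DOCA-salt 2 and Sham 2 after thinning. On *Sst* nuclei thinned to 2000 UMIs the direction turned, with 40.1%, 32.6%, 24.1% and 40.8% and means of 36.3% and 32.5% (exact permutation p = 1). Depth per *Sst* nucleus was lower in both DOCA-salt libraries.

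**Figure D4:**
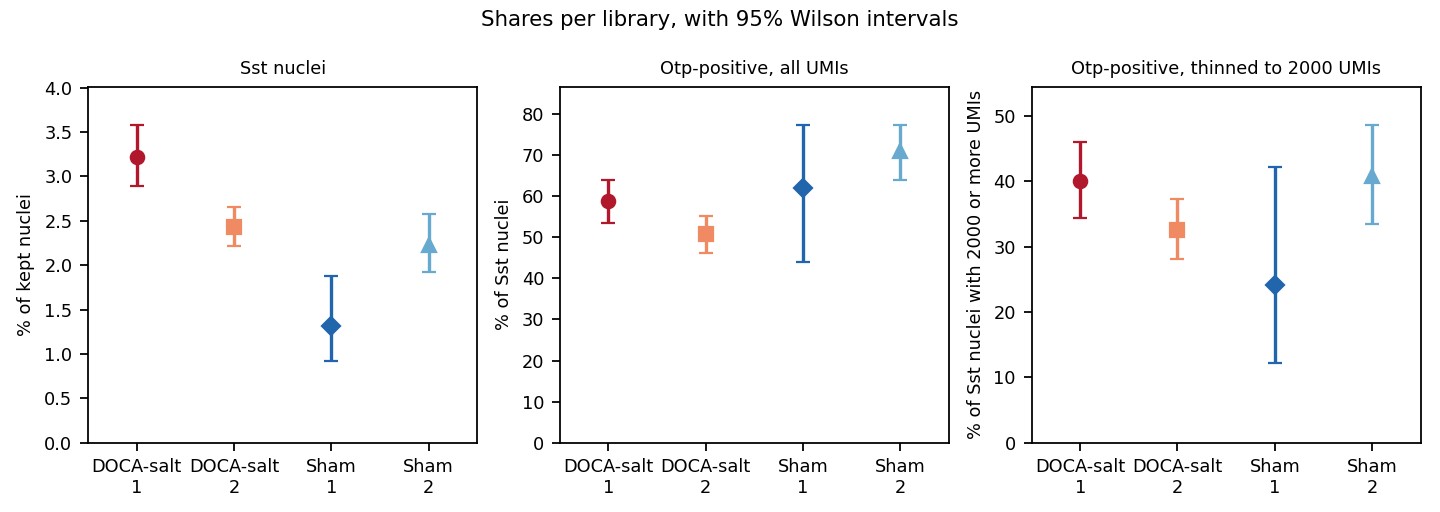
Share of *Sst* nuclei among kept nuclei (left, in %) and of *Otp*-positive nuclei among *Sst* nuclei before (middle, in %) and after thinning to 2000 UMIs (right, in %), 1 symbol per library with its 95% Wilson interval. The DOCA-salt libraries are higher on the left and lower in the middle, and after thinning Sham 1 is lowest at 24.1% and the groups overlap.

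Gene expression within *Sst* nuclei was then compared between DOCA-salt and Sham on 2 sums each. Of 11289 genes tested 1 was called (0.00886%), while 551 had an unadjusted p under 0.05 and 36.0% of genes had groups that did not overlap. The called gene was *Bc1*, a noncoding RNA of neurons that is carried into dendrites, at 178, 281, 2408 and 2767 CPM (log2 fold change -3.52 ± 0.31 (SE), adjusted p = 0.000835), lower in both DOCA-salt libraries. Other neurons of the same libraries showed a difference of similar size, at 208, 305, 2218 and 3063 CPM (log2 fold change -3.39 ± 0.32, adjusted p = 0.178), and the difference of the effects was not called (log2 difference -0.11, adjusted p = 1). Oligodendrocyte-gated nuclei held *Bc1* UMIs in 13.0%, 34.2%, 100% (of only 3 nuclei) and 95.4%. They also held the pan-neuronal marker *Meg3* in 47.2%, 54.0%, 100% and 90.2%. Which cells these UMIs came from was not tested. *Bc1* was called under each of the alternatives run. DESeq2 called 13 genes, all lower, and without DOCA-salt 1, DOCA-salt 2, Sham 1 or Sham 2 the count was 433, 73, 11 and 1, where a lone library is assumed to vary like the others.

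Next in order of p came *Meis2*, at 53.7, 40.8, 6.87 and 3.65 CPM (log2 fold change 3.39 ± 0.47, adjusted p = 0.0522), and the mitochondrial gene *mt-Atp8*, at 123, 70.3, 289 and 377 CPM (-1.85 ± 0.29, adjusted p = 0.121). *Meis2* was at 133, 32.8, 5.03 and 5.38 CPM in other neurons and *mt-Atp8* at 122, 69.6, 328 and 440.0 CPM, again with groups that did not overlap. *Gm42418*, a transcript that overlaps ribosomal RNA (2843, 770.1, 9121 and 7313 CPM), and *Hbb-bs*, of red blood cells (21.3, 25.5, 51.5 and 110.2 CPM), were lower in DOCA-salt without passing (adjusted p = 0.511 and 0.184). These genes were chosen after their values were seen and their part in other differences was not tested. Glial transcripts also differed between the libraries, since astrocyte markers summed to 1604, 2059, 2954 and 2611 CPM in *Sst* nuclei (8 tested, none called, median log2 fold change -0.70) and oligodendrocyte markers to 566, 1829, 2587 and 1892 CPM (8 tested, none called, median -0.53), lower in both DOCA-salt libraries. In other neurons 0 of 16327 genes were called by edgeR, with 1465 at an unadjusted p under 0.05.

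*Sst* itself, which the gate selects, ranged from 4189 CPM in Sham 2 to 5694 CPM in DOCA-salt 2. The marker genes were not called, nor were *Npy* and *Sstr2*. *Otp* (log2 fold change 0.01 ± 0.27, adjusted p = 0.999), *Gpr101* (-0.18 ± 0.32, 0.973), *Tmem26* (0.09 ± 0.37, 0.997), *Npy* (0.32 ± 0.31, 0.939) and *Sstr2* (-0.42 ± 0.35, 0.931) had groups that overlapped. *Sstr1* was at 31.0, 3.53, 37.8 and 67.9 CPM (-1.89 ± 0.64, adjusted p = 0.931), lower in both DOCA-salt libraries and lowest in DOCA-salt 2. *Ghr*, at 72.4, 63.2, 48.1 and 48.2 CPM (0.46 ± 0.27), and *Nr3c1*, at 136, 84.8, 113 and 175 CPM (-0.49 ± 0.29), were not called (adjusted p = 0.931 and 0.931). No gene was called among 34 metabolic receptors, 14 corticosteroid receptors and targets, 4 renin-angiotensin genes, 10 immediate early genes, 21 secretory granule genes or 38 cAMP genes tested, whose medians were 0.04, -0.10, 0.30, 0.15, -0.03 and -0.06 beside 0.02 over all genes.

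**Figure D5:**
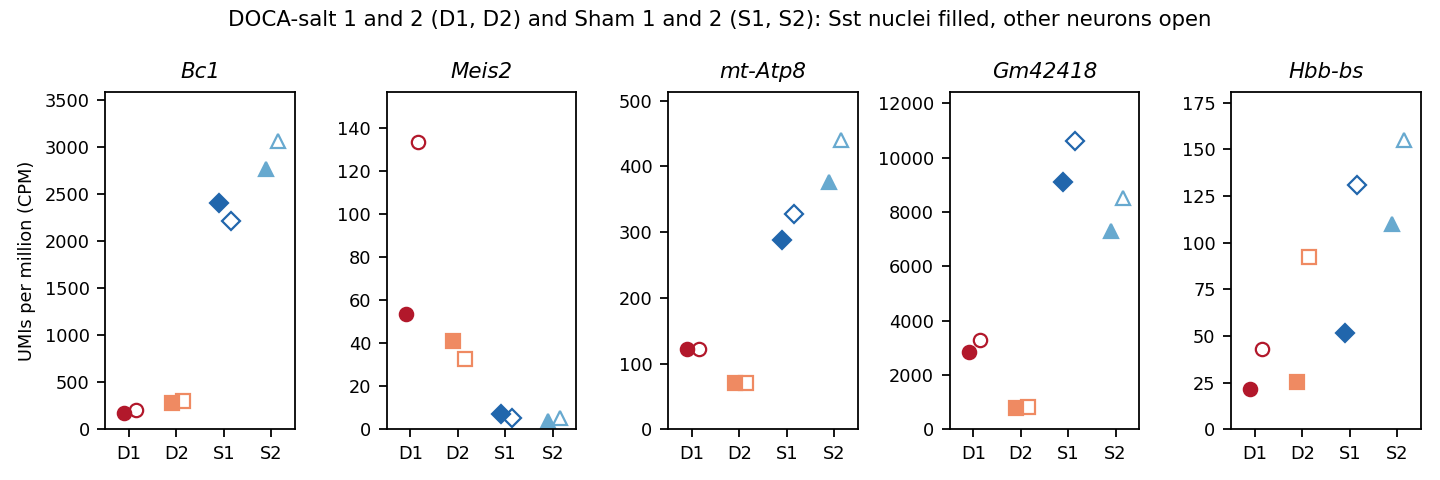
Levels in CPM (y axis, linear, a separate scale per gene) of 5 genes in each library (x axis), in *Sst* nuclei (filled symbols) and in other neurons (open symbols). *Bc1*, *mt-Atp8*, *Gm42418* and *Hbb-bs* are lower and *Meis2* is higher in the DOCA-salt libraries in both kinds of nuclei, and of these *Bc1* passed the test in *Sst* nuclei.

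Within *Otp*-positive *Sst* nuclei, 5 of 10515 genes passed the test of DOCA-salt against Sham (0.0476%), 1 higher (0.00951%) and 4 lower (0.0380%), and 35.9% of genes had groups that did not overlap. *Bc1* (174, 282, 2349.5 and 2615 CPM), *Hbb-bs* (14.0, 26.2, 46.3 and 114 CPM), *Gm42418* (2749.9, 768, 7483 and 7127 CPM) and *mt-Atp8* (122, 70.6, 222 and 363 CPM) were lower, and *Meis2* (35.1, 27.6, 0 and 1.77 CPM) was higher (log2 fold change 4.26 ± 0.73 (SE), adjusted p = 0.0439). The Sham levels of *Meis2* lie near the floor, from 18 and 123 nuclei. The study left a cluster named for *Arpp21* and *Meis2* out of its treatment tests, as it held few Sham nuclei. Without Sham 2 only *Bc1* was still called, and without Sham 1 *Gm42418* was lost. Within *Otp*-negative nuclei, 2 of 7799 passed (0.0256%, with 36.1% of genes not overlapping), *Bc1* (184, 279, 2577 and 3474 CPM) and *mt-Atp8* (124, 69.9, 481 and 442 CPM), both lower, the latter not without Sham 1 (adjusted p = 0.397). Whether the effect of DOCA-salt differed between the *Otp* classes was tested as an interaction, which called 4 of 10572 genes (0.0378%), 2 higher (0.0189%) and 2 lower (0.0189%), and none of the genes called within either class was among them.

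The genes called in that interaction were *Pmch* and *Cartpt*, with a more positive difference in *Otp*-positive nuclei, and *Npy* and *Tac1*, with a more negative one. *Pmch* was at 33.1, 2789, 41.6 and 3.55 CPM in *Otp*-positive and 32.8, 2574, 53.4 and 231 CPM in *Otp*-negative nuclei, with the widest gap between the classes in Sham 2. There 1 nucleus, without *Otp*, held *Pmch* at 38869 CPM, and the other *Sst* nuclei summed to 3.65 CPM. The interaction was not tested without that nucleus. The interaction between *Sst* nuclei and other neurons called 14 of 15123 genes (0.0926%), 11 more positive in *Sst* nuclei (0.0727%) and 3 more negative (0.0198%). Of these 14 genes, 7 met the rule of non-overlapping groups used for named genes, as did 1 of the 4 of the *Otp* interaction. *Cartpt*, a peptide of feeding circuits, was at 200.4, 562, 113 and 124 CPM in *Sst* nuclei and 342, 378, 158 and 248 CPM in other neurons (log2 difference 0.88, adjusted p = 1.01e-06). *Cbln2*, a synaptic organiser, was at 25.2, 52.2, 20.6 and 23.4 against 28.6, 51.9, 57.7 and 59.2 CPM (1.33, adjusted p = 0.00204), and *Cacna2d1*, a calcium channel subunit, at 249.6, 363, 234 and 197 against 461, 336, 360.4 and 375 CPM (0.51, adjusted p = 0.0375). For *Cartpt* and *Cacna2d1*, *Sst* nuclei lay above other neurons in DOCA-salt 2 alone. Neither interaction was run with a library left out. *Npy* had the smallest p of the interaction with other neurons (2.41 on the log2 scale, adjusted p = 8.64e-58), with other neurons of DOCA-salt 2 at 5.38 CPM. The DOCA-salt libraries differed widely in the gap between *Sst* nuclei and other neurons for this gene, a spread that this p does not reflect. The *Npy* interaction is therefore not read as an effect of treatment.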

How the data were processed

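Single-nucleus RNA libraries of 4 pools were used. The authors made the deposited files, whole UMI counts for 31053 genes per barcode, with Cell Ranger 3.0.1 on mm10 (GRCm38), restricted to called nuclei and not otherwise filtered or normalized. Kept here were 10307, 18907, 2203 and 7759 of 10765, 19754, 2805 and 8325 barcodes (DOCA-salt 1, DOCA-salt 2, Sham 1, Sham 2), those with over 200 and under 7000 genes, under 25000 UMIs and under 15% mitochondrial UMIs. Library totals were 45126915, 79437196, 53257230 and 59293582 UMIs. Doublets were not called, and an alternative left out nuclei above the 90th percentile of glial and vascular UMI share.

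Counts were summed per library and class and tested with edgeR 4.0.16 in R 4.3.3 (TMM, filterByExpr, quasi-likelihood test, Benjamini-Hochberg adjusted p under 0.05 over all tested genes), with the library as a block for contrasts within libraries. The standard error is the log2 fold change divided by the root of F. Genes of the gate were kept out of the calls, and so was *Otp* where it split the nuclei, in the treatment comparisons too. The study's test with nuclei as replicates was not run. With pools as replicates, p-values draw on the spread between pools, but the quasi-likelihood test shares that spread over genes. A gene can therefore pass though libraries disagree, as *Ebf3* and *Trh* did. Those of the interactions equal a normal test of the estimate over its standard error. Interaction p-values can be far too small where libraries of a group disagree. The members and gene lists were chosen with earlier results of these data known. Named genes were those of the lists, and per comparison up to 10 called genes a direction, ranked by size of change, with 20 or more CPM and the same direction in every library (or non-overlapping groups). Shares were compared with exact permutation tests in scipy 1.17.1 under Python 3.11.15. Thinning drew 2000 UMIs per nucleus without replacement, and shallower nuclei (65, 60, 0 and 16 *Sst* nuclei) were left out. Alternatives included DESeq2 1.42.0, other size factors, gates, depths and blocks, and leaving out each library. The fits were tested on simulated sums. Results for some genes are not reported here. Positions are from GENCODE vM21.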

Additional observations from a re-analysis of the deposited data

Results flagged for a closer look

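Genes whose DOCA-salt effect differed between classes by the test of the interaction (edgeR, adjusted p under 0.05) are given as log2 differences of the effects. Between *Otp*-positive and *Otp*-negative *Sst* nuclei these were 4.35 for *Pmch*, 1.20 for *Cartpt*, -1.51 for *Npy* and -1.89 for *Tac1*. In Sham 2 nearly all *Pmch* came from 1 *Otp*-negative nucleus (38869 CPM, against 3.65 CPM in the other *Sst* nuclei). *Tac1* was at 116, 84.0, 259 and 45.2 CPM in *Otp*-positive and 248, 78.4, 107 and 16.5 CPM in *Otp*-negative nuclei.

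Between *Sst* nuclei and other neurons the values above 0 included 2.41 for *Npy*, 2.36 for *Vip*, 1.33 for *Cbln2*, 1.20 for *Avp*, 0.98 for *Dlx1*, 0.97 for *Sorcs1*, 0.88 for *Cartpt*, 0.82 for *Mal*, 0.72 for *Prlr* and 0.51 for *Cacna2d1*. Those below 0 were -5.57 for *Igfbp6*, -0.92 for *Hbb-bs* and -0.67 for *Dlg3*. *Vip* was at 10.3, 1.18, 6.87 and 9.49 CPM in *Sst* nuclei and 1.71, 3.45, 26.8 and 26.3 CPM in other neurons, and *Igfbp6* at 0.647, 0, 3.44 and 7.30 against 2.98, 0.822, 1.20 and 0.789 CPM, levels that rest on few UMIs in *Sst* nuclei. *Mal* is an oligodendrocyte gene. *Avp* was at 7.76, 331, 44.7 and 54.0 against 6.83, 484, 80.4 and 193 CPM, highest in DOCA-salt 2 in both. For *Cartpt* and *Cacna2d1*, *Sst* nuclei lay above other neurons in DOCA-salt 2 alone. The part of differences between libraries in these values was not tested. Calls of the interactions can rest on p-values that are far too small where libraries of a group disagree.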

How the results depend on the processing

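For *Sst* nuclei against other neurons, 355 genes were called, 183 with DESeq2 and 7 without the library block, and 309 to 453 under the other 8 alternatives that kept all libraries. Leaving out a library gave 238 to 483. Of the 355, 1 gene changed sign without DOCA-salt 1 and 1 without DOCA-salt 2. For the *Otp* contrast (17 called), the counts were 6 with DESeq2, 32 with no filter of low counts, 8 with the stricter gate (Sham 1 then had under 5 nuclei on a side and was left out), 0 without the library block and 0 with nuclei thinned to 2000 UMIs before the split, and 0 to 19 with a library left out. For DOCA-salt against Sham in *Sst* nuclei (1 called), DESeq2 gave 13, RLE size factors 2, no filter 31, removal of nuclei high in glial and vascular genes 2, the looser gate 4, nuclei of 2000 or more UMIs 3, *Sst* nuclei that pass the neuron gate 2, and sums thinned to the smallest 5, with 1 to 433 when a library was left out. In *Otp*-positive nuclei (5 called) leaving out a library gave 1 to 326 and in *Otp*-negative nuclei (2 called) 3 to 25. The causes of these changes were not tested.

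The replicate number as a block gave 5 calls in *Sst* nuclei, 11 in *Otp*-positive and 4 in *Otp*-negative nuclei. Same-numbered libraries tended to deviate in opposite directions from their group means (correlation -0.22 over 11293 genes), and the crossed pairing, added after seeing the data, gave 69 calls. The labels do not say that the numbers pair the pools. The difference in the share of *Sst* nuclei (1.05 percentage points) kept its sign with the other gates, with thinned nuclei and with each library left out, but was 0.595 without Sham 1 and 0.655 without DOCA-salt 1 (1.51 at most, without Sham 2). That of *Otp*-positive nuclei (-11.8 points) was -16.3 to -7.32 with a library left out (-7.32 without Sham 2 and -7.85 without DOCA-salt 2) and turned to 3.88 with thinned nuclei. *Sst* nuclei were fewest in Sham 1 (29) and shallowest in DOCA-salt 1 (median 3467 UMIs). The neuron gate, the thinned split and the fit of other neurons were also added after seeing the data.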
